A study of Macaca mulatta with 12 samples.

Results

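The genes described here are 35 genes commonly used to recognise astrocytes, among them the 3 defining markers GFAP, AQP4 and SLC1A3. They were chosen by name, 35 of the 11963 genes on the array, and were read from every probe set, a group of short DNA probes on the array, whose gene symbol was exactly 1 of the 35. This gave 76 of the 22283 probe sets of a human Affymetrix array. Of these, 45 probe sets of 28 genes were bright enough to be tested, of 11105 probe sets tested in all. The RNA was total RNA from the lateral geniculate nucleus (LGN), the thalamic relay between retina and visual cortex, of rhesus macaques deprived of vision through 1 eye. Each of the 6 layers was sampled in the hemisphere ipsilateral and in the hemisphere contralateral, which gave 12 arrays with 1 array per layer and hemisphere. The 6 deprived samples came from ipsilateral layers 2, 3 and 5 and from contralateral layers 1, 4 and 6, and the other 6 samples were non-deprived layers of the same kind of animal. The 4 samples of layers 1 and 2 count here as magnocellular and the 8 samples of layers 3 to 6 as parvocellular. No sample came from an animal without deprivation. The age, the number of animals, which samples shared an animal, and the way and length of the deprivation are not stated in the labels, so p-values measure the spread between layers and hemispheres, which may be partly technical.

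Astrocytes are the glial cells that surround synapses and blood vessels. They take up glutamate and potassium, pass water and ions, feed neurons from their glycogen and lactate, and secrete lipoproteins and matrix proteins. Around neurons that lose input they can become reactive, a state in which the filament protein GFAP is the usual marker. Several of the genes are also expressed by other cells, such as APOE and CST3 in microglia and VIM in blood vessel cells, so they mark astrocytes as a group rather than singly.

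The arrays had been scaled to equal trimmed means (1500.45 to 1500.6) and differed in median intensity from 411.5 to 666.5. RNA quality was read from GAPDH control probes, whose ratio of 3' to 5' signal increases in degraded RNA. It was 9.38 on the deprived layer 2 and 11 on the deprived layer 5, and lay between 2.21 and 5.65 on the other arrays. The same ratio for ACTB control probes ranked the arrays differently. It was 62.86 on the deprived layer 2 but 24.4 on the deprived layer 5, and 54.69 and 43.88 on the non-deprived layers 1 and 4. The deprived layer 2 also had the lowest mean correlation with the other arrays, at 0.868 against 0.897 to 0.934. Only some of the counts, scores and changes below are also given without the deprived layers 2 and 5.

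GFAP, on its brighter probe set, and SLC1A3, which encodes a glutamate transporter, were bright on all 12 arrays. AQP4, the water channel of astrocyte end-feet, was not: its brightest probe set (210068_s_at) had a mean log2 intensity of 8.83 against the limit of 8.92 for testing. Its intensity ran from 339.8 to 927.3 with a median of 522 in deprived layers and from 100.1 to 616.9 with a median of 487.2 in non-deprived layers, and the groups overlapped. The label of the group therefore rested on 2 of its 3 defining markers. AQP4 was 1 of 7 members with no probe set bright enough to test, together with the water channel AQP1, the adhesion receptor CD44, the proteoglycan GPC5, the transcriptional inhibitor ID3, the neurotensin receptor NTSR2 and the protease inhibitor SERPINA3. NTSR2 lay below the intensity floor of 110.8 on 11 of 12 arrays. The dimmer probe set of GFAP (203539_s_at) lay below that floor on 10 of 12 arrays and was not tested. A change is given from here on as a log2 difference ± its standard error from limma, a level is an intensity on the deposited scale, and a member passed the test where its p-value adjusted over all 11105 probe sets was under 0.05.

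The first comparison asked whether the astrocyte genes differed between layers driven by the deprived eye and layers driven by the open eye. No member passed the test: 0 of 45 probe sets were called in limma, against 0.063% of all probe sets. At an unadjusted p under 0.05, 10 of the 45 were higher in deprived layers and 0 were lower, against 5.93% higher and 6.07% lower of all probe sets. After median centring of the arrays 3 of the 45 were higher and 0 lower, against 1.74% and 9.98% of all. With the ratio of the ACTB control, a measure of RNA quality, as a covariate 6 were higher and 0 lower, against 6.07% and 6.55%. Without the deprived layers 2 and 5, 9 were higher and 0 lower, against 5.11% and 4.45%. With the brightest probe set of each gene, 23 of 28 genes (82.1%) had a higher mean in deprived layers and the median change was 0.21. Over all 7285 genes, 53.1% had a higher mean and the median was 0.02. No member had all 6 deprived arrays above all 6 non-deprived arrays, which held for 0.333% of all probe sets. For 2 members, GFAP and PPP1R3C, the deprived layer was higher in 6 of 6 layers, which held for 2.74% of all probe sets. The 2 arrays of a layer came from opposite hemispheres, so each gap within a layer was also a gap between hemispheres.

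**Figure D1:**
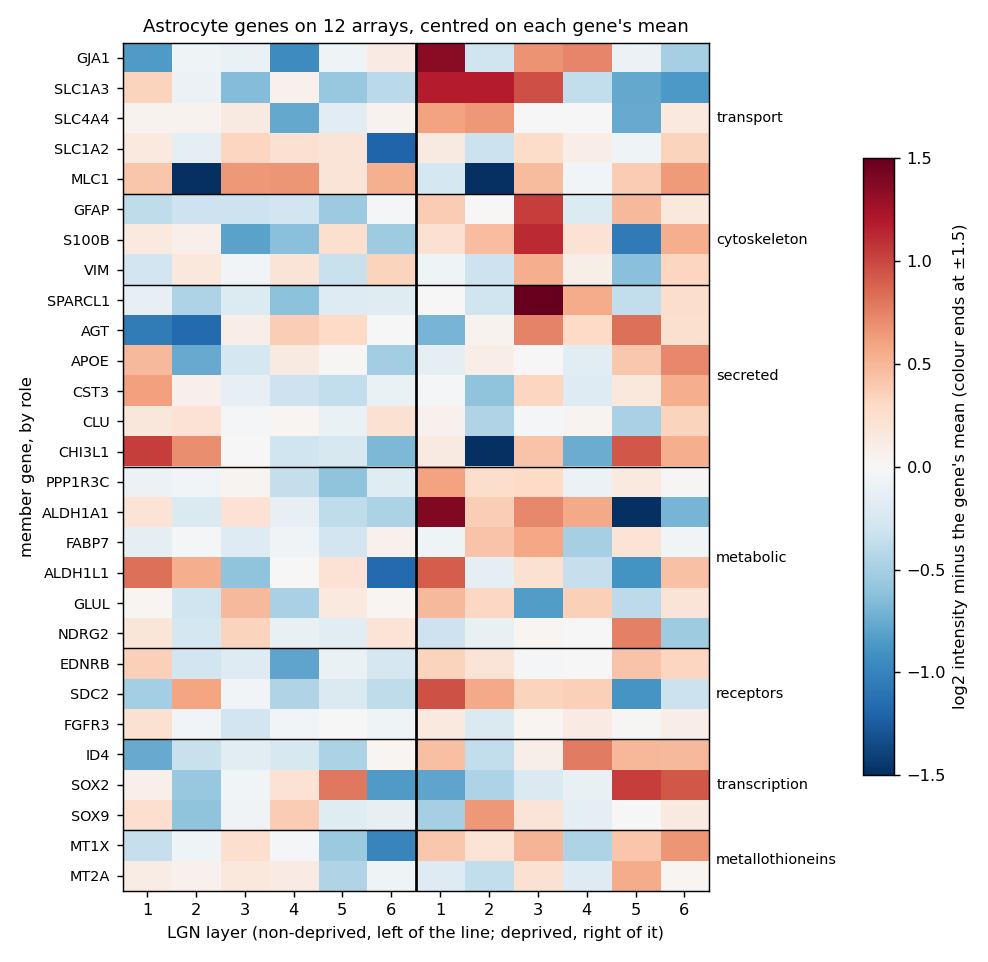
Log2 intensity of the 28 tested astrocyte genes, centred on each gene's mean over 12 arrays (colour, in log2 units), with layers 1 to 6 non-deprived on the left and deprived on the right, and genes grouped by role. The deprived layer 3 has the highest mean over the genes (0.37), and MLC1 is low in layer 2 of both groups.

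The overall level can be followed with a score, the mean over the 28 genes of each array's log2 intensity minus the gene's own mean. Deprived layers had scores from -0.08 to 0.37 with a median of 0.10, and non-deprived layers from -0.24 to 0.04 with a median of -0.14. The groups overlapped. Within each layer the deprived array, from the opposite hemisphere, was the higher one, by 0.20 in layer 1, 0.10 in layer 2 and 0.42 in layer 3. The gap was 0.17 in layer 4, 0.11 in layer 5 and 0.42 in layer 6. The mean difference was 0.24, between groups of 0.12 ± 0.18 and -0.12 ± 0.10 (SD, n = 6 each). It was 0.20 ipsilaterally and 0.27 contralaterally, and 0.15 in magnocellular and 0.28 in parvocellular layers. Within a hemisphere the deprived and non-deprived arrays were of different layers. The mean difference depended on how arrays were scaled. Centring each array on its median moved the median change of all probe sets from 0.03 to -0.11, the score difference to 0.10 and the layers with a higher deprived score from 6 to 4, and left 16 of 28 genes higher with a median of 0.07. The 7 genes that turned below 0 were ALDH1L1, CST3, FGFR3, GLUL, MT2A, SOX2 and SOX9. After quantile normalization 22 of 28 genes were higher, with a median of 0.23. When the deprived layers 2 and 5, with their high GAPDH ratios, were left out, the score difference was 0.35 and 25 of 28 genes were higher. In bulk tissue, more cells of a type and more RNA per cell cannot be told apart.

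Among the genes of the cytoskeleton and calcium binding, GFAP, the astrocyte intermediate filament, had the second smallest p of the members. Its intensity (203540_at) ranged from 2630 to 6229 with a median of 3676 in deprived layers, and from 2078.5 to 2974 with a median of 2452 in non-deprived layers. The deprived layer 3 was the highest array, the non-deprived layers lay close together, and only the deprived layer 4 fell inside the non-deprived range. The change was 0.62 ± 0.19 (1.54-fold, adjusted p = 0.203 in limma), with 0.74 ipsilaterally and 0.50 contralaterally. GFAP was higher in every alternative run, by 0.48 to 0.76, and passed the test in none of 24. S100B, a calcium-binding protein, had a change of 0.50 ± 0.30 (5 of 6 layers), from 1.91 in layer 3 to -1.30 in layer 5. VIM, the filament protein vimentin, had a change of -0.01 ± 0.21 with a 95% interval from -0.45 to 0.43, over intensities of 1191 to 2685.

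Among the transcriptional regulators, ID4, an inhibitor of basic helix-loop-helix factors, had the smallest p of all members. Its intensity (209291_at) ranged from 6007 to 13311 with a median of 10751.5 in deprived layers and from 4608 to 7937 with a median of 6358 in non-deprived layers. Layer 2 was the exception: its deprived array lay inside the non-deprived range, and the other 5 deprived arrays lay above it. The change was 0.65 ± 0.16 (1.56-fold, adjusted p = 0.147 in limma), higher in 5 of 6 layers, and 0.40 ipsilaterally against 0.90 contralaterally. A second probe set of ID4 (209293_x_at) gave 0.52 ± 0.22, also higher in 5 of 6 layers. The adjusted p of ID4 ran from 0.058 to 0.588 over 24 alternatives. SOX9 and SOX2, transcription factors of glial and neural stem cells, had changes of 0.11 ± 0.17 and 0.13 ± 0.31, which turned to -0.03 and -0.01 after median centring. Their dimmer probe sets gave 0.40 ± 0.30 for SOX9 (4 of 6 layers) and 0.55 ± 0.26 for SOX2 (214178_s_at, 5 of 6 layers), neither of which passed the test.

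**Figure D2:**
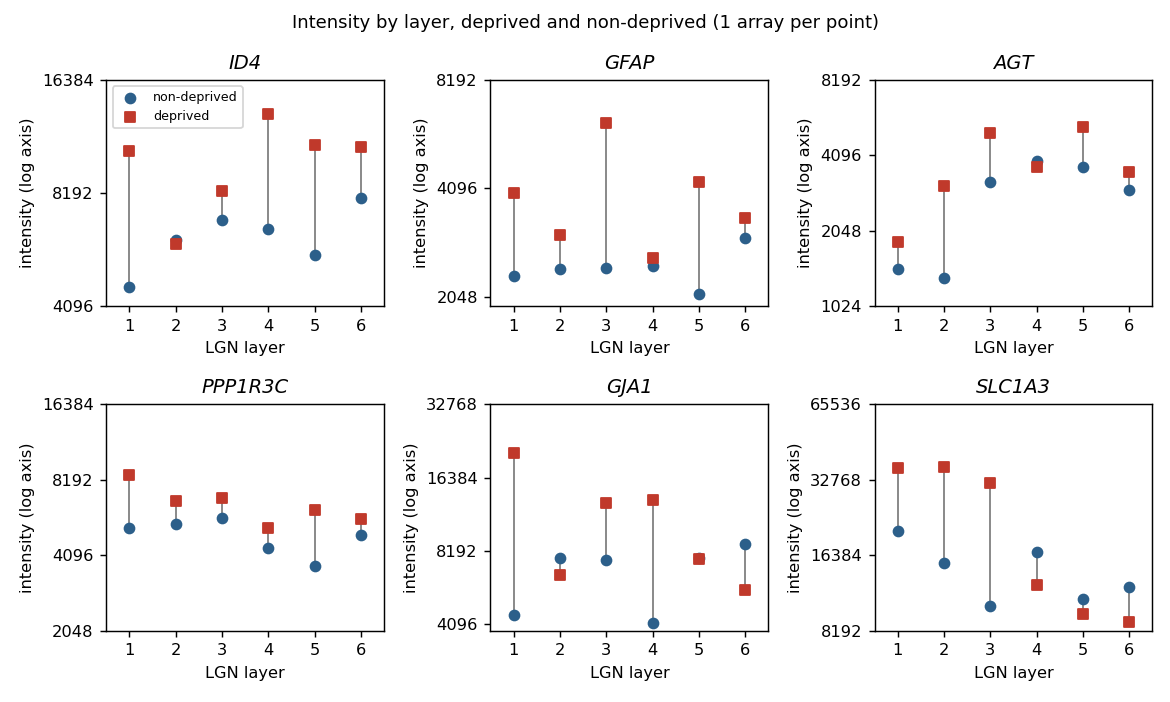
Intensity (log axis) of ID4, GFAP, AGT, PPP1R3C, GJA1 and SLC1A3 in each LGN layer, with 1 point per array, circles for non-deprived and squares for deprived layers. GFAP and PPP1R3C have the square on top in 6 of 6 layers, and GJA1 and SLC1A3 in 3 of 6.

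Of the secreted proteins, AGT, the angiotensinogen that brain astrocytes make, ranged from 1853 to 5289 with a median of 3605 in deprived layers and from 1333 to 3870 with a median of 3085 in non-deprived layers. Within layers the deprived array was the higher one in 5 of 6, with the widest gap in layer 2 (1.22) and a gap of -0.07 in layer 4. The change was 0.49 ± 0.17 (1.40-fold, adjusted p = 0.264). SPARCL1, a matrix protein that promotes synapse formation, had a change of 0.60 ± 0.26 (adjusted p = 0.373), higher in 5 of 6 layers. Its deprived layer 3 stood at 29799 and its deprived layer 4 at 14020, and the other 10 arrays lay between 6214 and 11426. APOE, the main lipoprotein of the brain, had a change of 0.30 ± 0.22. CST3, a protease inhibitor, had 0.07 ± 0.20. CLU, a secreted chaperone, had -0.17 ± 0.15, with all 3 of its tested probe sets below 0. CHI3L1, a chitinase-like protein of reactive glia, had -0.18 ± 0.41.

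Of the metabolic enzymes and lipid carriers, PPP1R3C, which targets a phosphatase to glycogen, was the second member higher in every layer. It ranged from 5271.5 to 8527 with a median of 6487 in deprived layers and from 3712 to 5762 with a median of 5104 in non-deprived layers, and the deprived layers 4 and 6 fell inside the non-deprived range. The change was 0.41 ± 0.15 (1.33-fold, adjusted p = 0.299), 0.45 ipsilaterally and 0.38 contralaterally. The other enzymes were less even. ALDH1A1, a retinaldehyde dehydrogenase, had 0.25 ± 0.34, from 1.18 in layer 1 to -1.22 in layer 5. FABP7, a fatty-acid carrier, had 0.20 ± 0.17. ALDH1L1, a folate enzyme used as a pan-astrocyte marker, had 0.06 ± 0.29. GLUL, the glutamine synthetase that disposes of glutamate, had 0.03 ± 0.18, with its 3 probe sets from -0.09 to 0.10. NDRG2, a cytoplasmic protein of mature astrocytes, had -0.06 ± 0.18 on its bright probe set and 0.73 ± 0.35 on a dimmer one (214279_s_at, adjusted p = 0.416), and the latter had its widest difference, 2.48, in layer 5.

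Of the genes for membrane transport and coupling, GJA1, the gap junction protein connexin 43, ranged from 5688.5 to 20558 in deprived layers with a median of 10205 and from 4163 to 8730 in non-deprived layers with a median of 7598. Its change of 0.63 ± 0.27 (adjusted p = 0.373) came from layers 1, 3 and 4, where the deprived array was higher by 2.21, 0.77 and 1.67, and it was -0.23, -0.02 and -0.62 in layers 2, 5 and 6. SLC1A3 divided the layers in another way. The deprived layers 1, 2 and 3 stood at 36472.5, 36657 and 31655, above all non-deprived layers, which ranged from 10287 to 20375 with a median of 13690.5. The deprived layers 4, 5 and 6 stood at 12523, 9528 and 8883, each below its non-deprived counterpart. The change was 0.44 ± 0.25 (adjusted p = 0.508). SLC1A2, the main glutamate transporter, was among the brightest probe sets and had 0.15 ± 0.20, higher in 1 of 6 layers (layer 6, by 1.53). SLC4A4, a sodium bicarbonate cotransporter, had 0.21 ± 0.18, and MLC1, an astrocyte junction protein, had -0.23 ± 0.36.

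Of the receptors and surface proteins, EDNRB, the endothelin B receptor, ranged from 6884 to 9344 with a median of 8300 in deprived layers and from 4003 to 8914 with a median of 5966 in non-deprived layers. It was higher in 5 of 6 layers (0.42 ± 0.17, adjusted p = 0.34), and its other probe sets gave 0.25 and 0.46. SDC2, a heparan sulfate proteoglycan, had 0.34 ± 0.22, and FGFR3, a growth factor receptor, had 0.07 ± 0.14. Of the metallothioneins, which bind zinc and copper, MT1X was higher in 5 of 6 layers (0.58 ± 0.22, adjusted p = 0.306), and its second probe set gave 0.15 ± 0.21. MT2A had 0.02 ± 0.16. Metallothionein genes are near-identical in sequence, so a probe set of 1 can bind transcripts of others. In the fit without the brightness filter, the 7 dim members had changes of 0.67 (AQP1), 0.53 (AQP4), 0.51 (GPC5), 0.33 (ID3), 0.22 (CD44), 0.07 (NTSR2) and -0.15 (SERPINA3), with a lowest adjusted p of 0.681. This brought the genes with a higher mean in deprived layers to 29 of 35. The median change of all 22215 probe sets in that fit was 0.07, against 0.03 in the main fit. NTSR2 rose above the floor only in the deprived layer 2 (150.8), so its sign rested on that array.

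**Figure D3:**
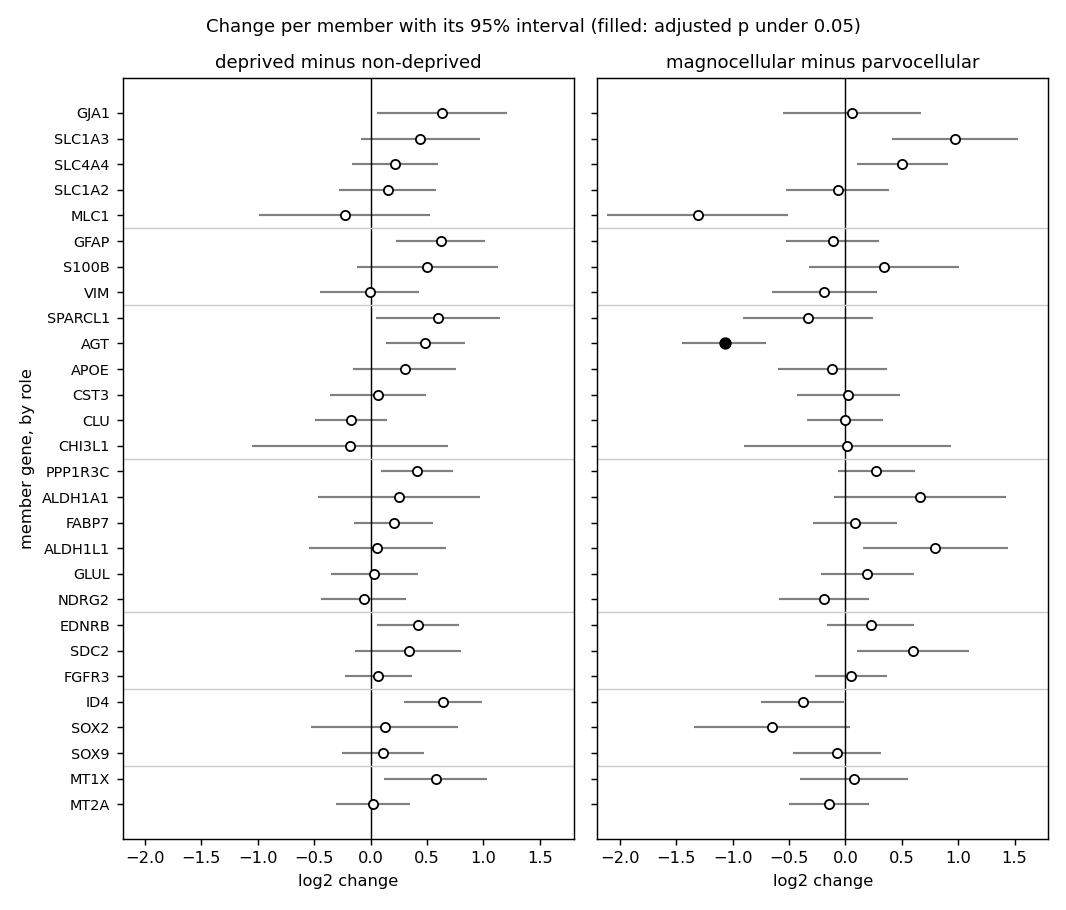
Log2 change with its 95% interval for the 28 tested members, by role, for deprived minus non-deprived layers (left) and magnocellular minus parvocellular layers (right). The left panel has 23 of 28 points to the right of 0 and none filled, and in the right panel AGT, at -1.07, is the filled point.

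Other gene lists were read on the same arrays. A second list of astrocyte genes, none of them members, had 48 genes of which 28 could be tested: 0 were called in limma, 8 were higher and 0 lower at an unadjusted p under 0.05, and 23 of 28 had a higher mean, with a median change of 0.26. The smallest p belonged to the transcription factor NFIB (0.74 ± 0.19, adjusted p = 0.147), the peptide transporter SLC15A2 (0.76 ± 0.22) and the glutamate receptor GRM3 (0.48 ± 0.15). All 11 tested oligodendrocyte markers had a higher mean in deprived layers, 0 of them called, with a score difference of 0.37 and the myelin enzymes CNP (0.67 ± 0.20) and FA2H (0.59 ± 0.19) and the iron carrier TF (0.57 ± 0.20) first. Their summed intensity ran from 92577 to 192324 in deprived and from 79997 to 134795 in non-deprived layers. Of the microglial markers 6 of 7 were higher (score difference 0.21), led by CX3CR1 (0.47 ± 0.19), CTSS (0.34) and LAPTM5 (0.25). Their summed intensity was 9998 to 20602 in deprived and 10329 to 13655 in non-deprived layers. Of the endothelial and mural markers 8 of 9 were higher (0.27), led by CAV1 (0.44), ACTA2 (0.53 ± 0.23) and RGS5 (0.39), with summed intensities of 12964 to 19625 and 10482 to 14286. Of 14 neuronal markers 12 had a lower mean (score difference -0.17), led by the neurofilament genes NEFM (-0.53 ± 0.11, adjusted p = 0.101) and NEFH (-0.35 ± 0.10) and by STMN2 (-0.35 ± 0.11). Their summed intensity was 523357 to 668467 in deprived and 628308 to 750196 in non-deprived layers. None of these markers passed the test in limma. At an unadjusted p under 0.05, 5 oligodendrocyte, 1 microglial, 2 endothelial and mural and 1 neuronal marker were higher and 4 neuronal markers were lower. Over all 7285 genes, 444 were higher and 459 lower at that limit, 12.4% in either direction. After median centring the score differences were 0.23 for oligodendrocyte, 0.07 for microglial, 0.14 for endothelial and mural and -0.30 for neuronal markers. The part of other cells in the astrocyte values was not tested.

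**Figure D4:**
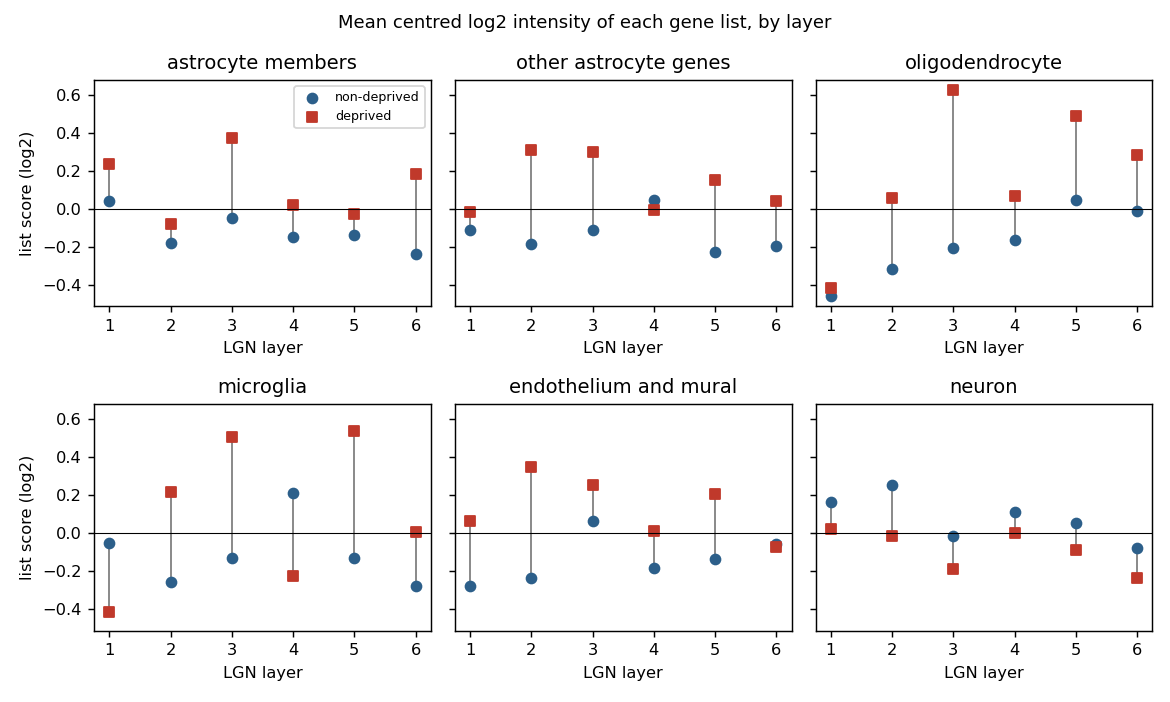
List scores (mean centred log2 intensity) by LGN layer for the astrocyte members and 5 other gene lists, with circles for non-deprived and squares for deprived arrays. The astrocyte members and the oligodendrocyte markers have the square on top in 6 of 6 layers, the other astrocyte genes in 5 of 6, and the neuronal markers in 0 of 6; after median centring these counts are 4, 4, 4 and 2.

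The second comparison set magnocellular layers, which hold large fast-conducting relay cells, against parvocellular layers, with small cells that carry colour and fine detail. AGT fell in magnocellular layers, and was the only member of 45 probe sets called, where 0.72% of all probe sets were. In layer 1 it stood at 1442 in the non-deprived and 1853 in the deprived array, and in layer 2 at 1333 and 3096. In parvocellular layers it ranged from 2976 to 5289 with a median of 3687. Only the deprived layer 2, 1 of the 2 arrays of highest GAPDH ratio, reached the parvocellular range. The means were 1931 ± 808.5 (SD, n = 4) and 3905 ± 823 (n = 8), a change of -1.07 ± 0.18 (0.475-fold, adjusted p = 0.00895 in limma), with -0.98 ipsilaterally and -1.16 contralaterally. No member had all 4 magnocellular arrays below all 8 parvocellular ones, which held for 0.946% of all probe sets.

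The call of AGT was lost without the deprived layer 1 (-1.04 ± 0.21, adjusted p = 0.0693) or the non-deprived layer 2 (-1.05 ± 0.21, adjusted p = 0.0526), and in the 6 non-deprived samples alone (-1.30 ± 0.25, adjusted p = 0.142). Calls were fewer over all 11105 probe sets too: 17, 19 and 2 in these fits, against 80 in the main fit. The ratio of the ACTB control probes was 46.4 ± 15.1 in the 4 magnocellular samples and 25.7 ± 8.78 (SD) in the 8 parvocellular ones. With that ratio as a covariate, an alternative added after the data were seen, the change of AGT was -1.205 ± 0.30 with an adjusted p of 0.521. That fit called 4 of all 11105 probe sets with cell class, against 80 in the main fit. Over all 22 alternatives the change of AGT lay between -1.30 and -0.97. Oligodendrocyte markers also had a lower score in magnocellular layers, by -0.43, though 3 of the 11 had a higher mean. In the main limma fit the myelin genes MAG (-1.26 ± 0.23, adjusted p = 0.018) and MBP (-0.64 ± 0.13, adjusted p = 0.0334) fell, with FA2H next (-0.69 ± 0.21). The summed intensity of the oligodendrocyte markers ran from 79997 to 123192 in magnocellular and from 109864 to 192324 in parvocellular layers. Of 14 neuronal markers 10 had a higher mean in magnocellular layers. In the main limma fit NEFM rose there (0.83 ± 0.12, adjusted p = 0.00295), with NEFH (0.46 ± 0.11) and GAD1 (0.61 ± 0.19) next. The part of these cells in the difference of AGT was not tested.

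**Figure D5:**
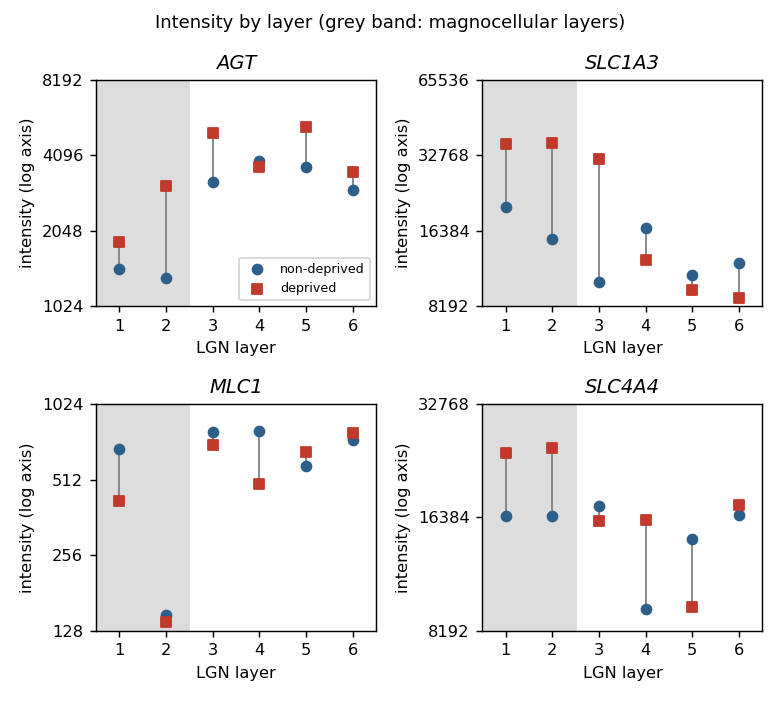
Intensity (log axis) of AGT, SLC1A3, MLC1 and SLC4A4 by LGN layer, with 1 point per array, circles for non-deprived and squares for deprived layers, and magnocellular layers 1 and 2 on grey. AGT is low in layer 1 and in the non-deprived layer 2, MLC1 is low in both arrays of layer 2, and SLC1A3 is high in the deprived layers 1 to 3.

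The remaining members had no shared direction by cell class. At an unadjusted p under 0.05, 4 of 45 probe sets were higher and 4 lower in magnocellular layers, against 5.24% and 9.35% of all probe sets, and the median change of the 28 genes was 0.02 against -0.06 over all genes. SLC1A3 had the second smallest p: 20375 and 36472.5 in the non-deprived and deprived layer 1, 15188 and 36657 in layer 2, and 8883 to 31655 with a median of 11571 in parvocellular layers. All parvocellular arrays but the deprived layer 3 and the non-deprived layer 4 lay below every magnocellular one. The change was 0.97 ± 0.26 (1.96-fold, adjusted p = 0.118). It passed the test without the deprived layer 3 (1.12 ± 0.23, adjusted p = 0.0421), in a fit that called 57 of all 11105 probe sets. It was 0.51 ± 0.22 (adjusted p = 0.653) in non-deprived samples alone, 0.75 ± 0.29 without the deprived layer 1 and 0.78 ± 0.45 with the ACTB ratio as a covariate. MLC1 stood at 675.4 and 419.5 in layer 1, 147.8 and 138 in layer 2, and 492 to 797.9 with a median of 718.5 in parvocellular layers. Its change was -1.31 ± 0.38 (adjusted p = 0.138). Without the non-deprived layer 1 it was -1.77 ± 0.37 (adjusted p = 0.038), in a fit that called 75 of all 11105 probe sets. The 2 lowest arrays were those of layer 2, while the non-deprived layer 1 lay inside the parvocellular range and the deprived layer 1 below it.

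SLC4A4 stood at 16548 and 24306 in layer 1, 16542 and 25032 in layer 2 and 9367 to 17645 with a median of 16076 in parvocellular layers (0.50 ± 0.19, adjusted p = 0.246), while its dimmer probe sets gave -0.19 and -0.24. ALDH1L1 had 0.80 ± 0.31 on its bright probe set and -0.31 ± 0.27 on the other, and SDC2 had 0.60 ± 0.24 and -0.24 ± 0.21. The 2 probe sets of ID4 had -0.38 ± 0.17 and -0.53 ± 0.24, and SOX2 had -0.65 ± 0.33. ALDH1A1 had 0.66 ± 0.36. GFAP had -0.12 ± 0.20, with 2335 and 3965 in layer 1, 2445 and 3038 in layer 2 and 2078.5 to 6229 in parvocellular layers, and its sign turned in 3 alternatives. The other members lay between -0.33 (SPARCL1) and 0.34 (S100B). By role, the score was higher in magnocellular layers for metabolic genes (0.30) and receptors (0.29) and lower for secreted proteins (-0.25) and transcriptional regulators (-0.37), and for the whole group the difference was 0.01. These role scores rested on 3 to 6 genes each, with 1 probe set per gene. Probe sets of opposite sign by cell class occurred in 6 of the 12 members with several tested probe sets. Of the 28 tested genes of the second astrocyte list 0 were called by limma. At an unadjusted p under 0.05, 3 were higher and 0 lower, against 14.7% of all 7285 genes in either direction. DIO2, which activates thyroid hormone, came first (0.63 ± 0.20), then FAM107A (0.52 ± 0.21) and ACSL6 (0.39 ± 0.18).

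The third comparison asked whether the change with deprivation differed between magnocellular and parvocellular layers. None of the 45 probe sets passed the test of that difference, as 0% of all probe sets did in limma. At an unadjusted p under 0.05, 1 was more positive and 2 were more negative in magnocellular layers, against 2.69% and 6.03% of all. The 2 more negative ones were CHI3L1 and CST3. CHI3L1 stood at 307.3 in the deprived and 1777 in the non-deprived layer 2, and at 1199 and 2246 in layer 1. In layers 3, 5 and 6 the deprived array was the higher one, by 0.42, 1.17 and 1.21, and in layer 4 it was lower (-0.45). The mean change was -1.72 in magnocellular and 0.59 in parvocellular layers, a difference of -2.31 ± 0.67 (adjusted p = 0.408 in limma). CST3 had -0.66 and 0.43, a difference of -1.09 ± 0.34 (adjusted p = 0.425), with 12581 and 20280 in the deprived and non-deprived layer 2 and 18930 and 29449 in layer 1. Both genes were highest among magnocellular arrays in the non-deprived layer 1 and lowest in the deprived layer 2. Without the deprived layer 1 the difference of CHI3L1 was -3.41 ± 0.63 with an adjusted p of 0.0141, in a fit that called 208 of all 11105 probe sets. That fit has the deprived layer 2 as its only deprived magnocellular array, assumed to vary like the others. When the deprived layers 2 and 5 were left out, the differences were -1.09 ± 0.59 for CHI3L1 and -0.75 ± 0.39 for CST3.

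The fourth comparison set ipsilateral against contralateral samples, with deprivation and cell class in the fit. None of the 45 probe sets passed the test in limma, against 0.108% of all, and 4 were higher and 3 lower ipsilaterally at an unadjusted p under 0.05, against 13% and 7.13% of all. GLUL had the smallest p on 1 of its 3 probe sets (200648_s_at, -0.64 ± 0.22, adjusted p = 0.14), and its brightest gave -0.45 ± 0.18. SOX9 had 0.45 ± 0.17 and FABP7 0.36 ± 0.17. A dim probe set of SOX2 (214178_s_at) had 0.64 ± 0.26, and its brightest gave -0.07 ± 0.31. After median centring SOX9 had 0.13, the dim probe set of SOX2 0.32 and FABP7 0.05, and GLUL had -0.96 ± 0.24 (adjusted p = 0.0568). Of the 45 probe sets, 0 were then higher and 11 lower at an unadjusted p under 0.05, against 2.03% and 25.2% of all, and 3 of 28 genes had a higher mean ipsilaterally, against 12 on the deposited scale. Over all 7285 genes, 57.8% had a higher mean ipsilaterally on the deposited scale. Median centring moved the median change of all probe sets from 0.07 to -0.25. The GAPDH ratio was 6.14 ± 3.37 ipsilaterally and 3.20 ± 0.72 contralaterally (SD, n = 6 each). When the deprived layers 2 and 5, both ipsilateral, were left out, 18 of 28 genes had a higher mean. Their median change went from -0.04 to 0.15, while that of all probe sets stayed at 0.07. In that fit 1 of the 45 probe sets was higher and 2 were lower at an unadjusted p under 0.05, against 7.53% and 4.99% of all. The score of the 28 genes differed by -0.03, and by -0.34 after median centring, and the array medians themselves were 586 ± 83.4 ipsilaterally and 468 ± 39.7 contralaterally (SD, n = 6 each).

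The members did not vary as 1 unit over the 12 arrays. As a description, over arrays that share scaling and RNA quality, the median correlation of the 378 pairs of members was 0.12, against 0.01 for all pairs of tested genes. SPARCL1 (r = 0.73), GFAP (0.69), PPP1R3C (0.61) and MT1X (0.60) followed the mean of the other members most closely. AGT (0.03), MLC1 (0.06), SOX2 (-0.07), GLUL (-0.19) and NDRG2 (-0.27) did not follow it. The most alike pair was CST3 with CHI3L1 (r = 0.84), then ALDH1A1 with SDC2 (0.79) and SLC1A3 with ALDH1A1 (0.75), and the most opposed was SDC2 with SOX2 (-0.68). The range over arrays was widest for ALDH1A1 (2.99 in log2) and CHI3L1 (2.87) and narrowest for FGFR3 (0.52).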

How the data were processed

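Per the labels, total RNA of 12 single LGN layers was measured, 1 array each. The deposited values were linear intensities, 1 per array for each probe set, already scaled between arrays; the authors' software was not given in the sources used here. Gene symbols came from the platform annotation, and all 35 members' symbols were in the macaque gene tables. Human probes can bind macaque RNA less well, so each change was computed within a probe set across arrays. The brightness limit and the choice of a gene's brightest probe set did compare probe sets with each other, so weak binding could affect them. Intensities were set to at least 110.8, the 20th percentile of all values, before taking log2. The brighter 11105 probe sets, those whose mean reached the median of the array, were tested without the 68 controls in limma 3.58.1 (R 4.3.3; lmFit, eBayes with a trend; two-sided; Benjamini-Hochberg over all). Terms were deprivation, cell class and hemisphere (8 residual degrees of freedom; 7 with the interaction), and the code was tested on simulated data. A gene's brightest tested probe set stood for it in scores. Scores were described without a test. The members, gene lists and alternatives were chosen with earlier results of these data known. The named members are the 3 markers, those called, and the 4 genes of smallest p per comparison (2 for the interaction), and the others are given by their change. The number of arrays limits the precision.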

Additional observations from a re-analysis of the deposited data

Results flagged for a closer look

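Of 28 groups of 6 arrays examined among the named members and the score, 3 held an array far from the other 5, where chance gives about 1 in 20. MLC1 was low in layer 2 in both groups: at 138 in the deprived array, with a gap to the next array of 0.64 of the group's log2 range, and at 147.8 in the non-deprived array, with a gap of 0.811 of the range (critical value 0.625). The other 10 arrays lay between 419.5 and 797.9. SLC4A4 was low in the non-deprived layer 4, at 9367, with a gap of 0.683 of the range.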

How the results depend on the processing

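The count of called members was 0 with deprivation under all 24 alternatives run and 0 with hemisphere under all 21. Those fits called 0 to 43 and 0 to 851 of all probe sets tested. With cell class the count of members was 0 in non-deprived samples alone and 0 with the ACTB ratio as a covariate, where 2 and 4 of all 11105 probe sets were called. The count was 0 to 2 when single arrays were left out, where 17 to 188 of all probe sets were called. For the interaction it was 0 to 1 when single arrays were left out; the 1 came without the deprived layer 1, where 208 of all 11105 probe sets were called against 0 with all arrays. The score difference with deprivation was 0.10 and that with hemisphere -0.34 after median centring; leaving out single arrays gave 0.17 (without the deprived layer 3) to 0.29 with deprivation. GFAP's class difference turned to 0.036 when the 2 arrays with the most degraded GAPDH signal were dropped and to 0.44 with the ACTB ratio, and was -0.24 to 0.044 (without the deprived layer 2) when single arrays were left out. The causes were not tested. Deviations of the 2 samples of a layer correlated at -0.25 to -0.002. With hemisphere removed, as in the main fit, they correlated at 0.12 to 0.30 in layers 1 to 5 and -0.11 in layer 6. The layer numbers were not taken as pairs in the main fit, and these values do not settle whether they should be. With the layer number as a replicate block the count with deprivation was 0 (ID4 0.65, adjusted p = 0.205).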
